A study of Mus musculus with 8 samples.

Results

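Transitional intercalated cells are the cells that the authors placed in their class Trans IC, one of 28 classes in a single-cell RNA sequencing study of whole mouse kidney. The class held 593 of 77393 cells, or 0.766% of all cells, and 27.0% of the cells in the 3 intercalated classes A-IC, B-IC and Trans IC. Every cell was chosen by its class name alone, and each was tied to a sample by the sample name in the same table. The UUO samples came from kidneys after unilateral ureteric obstruction (UUO), in which the left ureter was tied and the animals were killed at day 7. They were set against Control samples, and all animals were C57BL/6 mice aged 7 weeks. The labels describe the ligation in identical words for Control and UUO samples, so the 2 groups were told apart by title and disease label, and the handling of Control animals is not known here. Whether each sample was its own animal is also not stated, and p-values then measure only sample-to-sample spread, which could be technical.

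Collecting ducts are lined by principal cells (CD PC), which take up sodium and water, and by intercalated cells, which move acid and base with the help of a proton pump, the V-ATPase. Alpha intercalated cells (A-IC) secrete acid and beta intercalated cells (B-IC) secrete base. A further cell state that carries features of both principal and intercalated cells has been described in mouse kidney as transitional, and Notch signalling is known to favour the principal over the intercalated fate. Aqp2, the water channel of principal cells, and Atp6v1g3, a V-ATPase subunit of intercalated cells, are the genes that would mark such a cell together. Expression of single genes is not analysed here, so the name was not checked against these markers. What could be checked was the number of cells, their molecules and genes per cell, their mitochondrial share, and their place in the deposited UMAP embedding, a map in which cells with similar transcripts lie close together.

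UUO samples 1 and 2 held 15 and 41 Trans IC cells, and Control samples 1 to 6 held 24, 43, 56, 87, 178 and 149. Whole samples ranged from 2263 to 18393 cells and from 4375942 to 56755823 unique molecules (UMIs). The difference in class numbers between Controls 3 and 4 narrowly missed the threshold of 0.05 (chi-square p = 0.0509). Such a p does not show that the 2 were alike. Their Trans IC cells had median mitochondrial shares of 4.41% and 9.76%, and 83.9% and 59.8% of them had under 1000 UMIs. By a rule on this p, cells of Controls 3 and 4 were pooled and counted as 1 sample (Control 3+4), so UUO had 2 samples and Control had 5. Control 3+4 stood apart in several Trans IC values below. No Trans IC barcode occurred in Trans IC cells of more than 1 library.

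The embedding placed Trans IC among the intercalated cells and, like B-IC and A-IC, away from the principal cells. Classes and embedding rest on the same transcripts, so these positions are a description with no test. The Trans IC centre (median coordinates) lay 1.21 units from the B-IC centre, 2.54 from the A-IC centre and 5.36 from the CD PC centre, while A-IC and B-IC lay 2.44 apart. The B-IC and A-IC centres lay 5.36 and 7.73 units from the CD PC centre, so this distance does not set Trans IC apart from them. With the class itself counted, 75.6% of the 20 nearest cells were Trans IC. Of the 593 cells, 541 (91.2%) were closer to the B-IC centre than to the A-IC or CD PC centre, 45 (7.59%) were closest to A-IC and 7 (1.18%) to CD PC. Among the 20 nearest cells outside the class, 79.4% were B-IC, 14.3% A-IC, 4.20% connecting tubule (CNT) and 0.0169% CD PC. Only 7 cells lay more than 3 units from the class centre. The name therefore stands here as the authors' label for cells that bordered B-IC and A-IC, with almost no principal cell among their neighbours. The share of principal cells among neighbours is not given here for B-IC or A-IC.

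**Figure D1:**
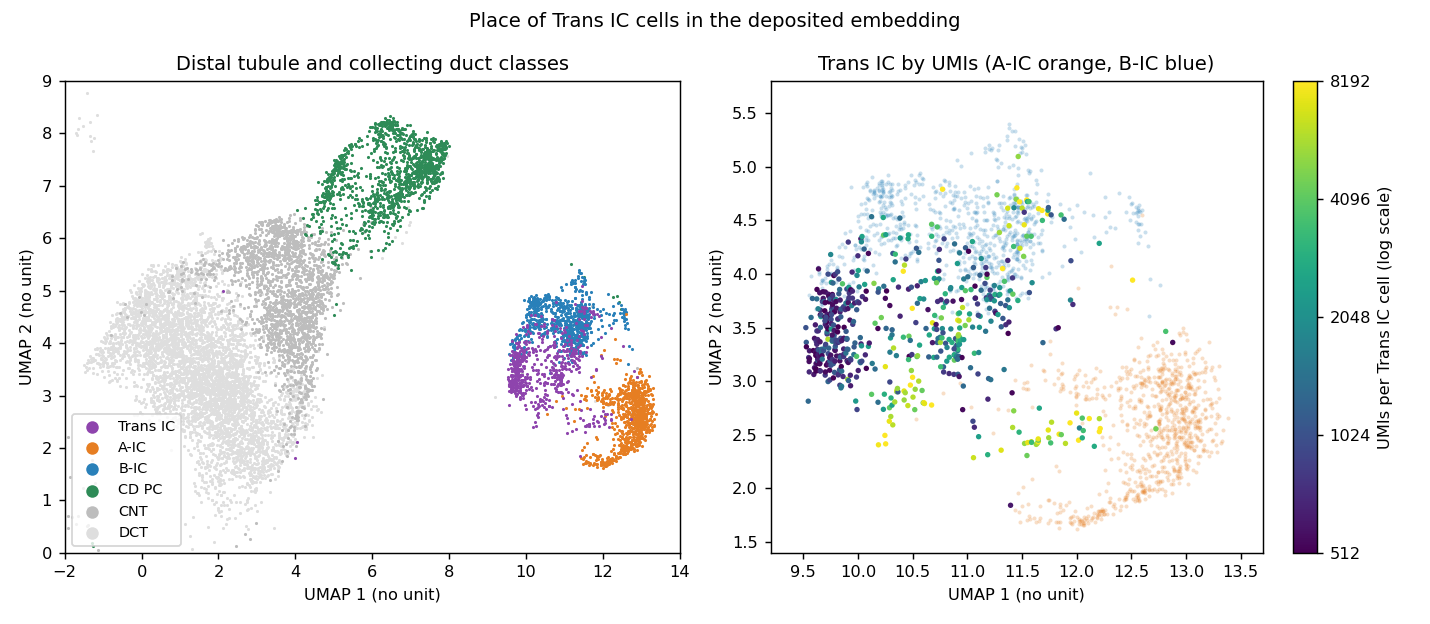
Cells in the deposited UMAP embedding (both axes without unit): left, each point is a cell of 1 of 6 distal tubule and collecting duct classes, and right, the intercalated cells enlarged, with Trans IC coloured by UMIs per cell on a log scale; stray cells outside these windows are not drawn. Trans IC lies next to B-IC with some cells towards A-IC, and its centre is 5.36 units from that of CD PC, about as far as the B-IC centre.

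B-IC made up 54.7% (15 cells) and 71.7% (41 cells) of these neighbours in UUO samples 1 and 2, against 72.0% to 92.1% in the Control samples. UUO sample 1 was well below the rest, and UUO sample 2 was just below the lowest Control sample. A-IC made up 36.3% and 19.5% of neighbours in UUO samples 1 and 2, against 5.28% to 22.1% in Control. Along the line that joins the CD PC centre (0) to the A-IC centre (1), the median Trans IC cell sat at 0.748 and 0.667 in UUO samples 1 and 2, against 0.638 to 0.717 in Control. The groups overlapped, and the UUO minus Control difference was 0.028 (two-sided exact permutation test, p = 0.476, adjusted p = 0.571 over 2 lines). On the line from CD PC (0) to B-IC (1), the median cell sat at 1.06 and 0.939 in UUO samples 1 and 2. Control samples lay at 0.899 to 1.03 there, so Trans IC was level with the B-IC centre. The UUO minus Control difference on that line was 0.033 (exact permutation p = 0.571, adjusted p = 0.571). A place on a line ignores the distance from it, so a value between 0 and 1 does not show an intermediate state. Both differences had the other sign without UUO sample 1 (-0.013 and -0.026).

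As a share of all cells, Trans IC was lower in the UUO samples. A share is relative, and numbers of cells per kidney are not given here. UUO samples 1 and 2 held 0.0816% (0.0457 to 0.134) and 0.317% (0.228 to 0.430) Trans IC (exact Clopper-Pearson 95% intervals, which cover counting error only). Controls 1, 2, 3+4, 5 and 6 held 0.667%, 0.668%, 2.30%, 1.10% and 1.09%. Both UUO samples lay below every Control sample, and Control 3+4 was the highest by far. The mean share was 0.199% ± 0.167 over the 2 UUO samples and 1.17% ± 0.670 over the 5 Control samples (SD). The UUO minus Control difference was -2.69 in log2 odds (SE 0.84, 95% interval -4.36 to -1.03, limma adjusted p = 0.00486 over 28 classes).

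In that fit limma called 50% of the 28 classes in either direction and 28.6% of them as lower, so a call was common. In the same fit CD PC and B-IC differed by -3.52 and -3.39, and A-IC by -1.81, which was not called (limma adjusted p = 0.000724, 0.000876 and 0.0623). All classes shared 1 standard error with 140 degrees of freedom, and the interval does not measure the spread of Trans IC alone. The exact permutation p was 0.0476, the smallest that 2 samples against 5 can give, and 0.111 when adjusted over the classes. Without UUO sample 1 the difference was -1.72 and was no longer called (limma adjusted p = 0.194). Without Controls 3 and 4 it was -2.40 (limma adjusted p = 0.00468).

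Within the tubular epithelium the direction was the same. Trans IC made up 0.0992% and 0.453% of tubular cells in UUO samples 1 and 2, against 0.767%, 0.729%, 2.79%, 1.19% and 1.18% in Controls 1, 2, 3+4, 5 and 6. The difference was -2.46 in log2 odds (SE 0.77, 95% interval -4.01 to -0.91, limma adjusted p = 0.00419 over 10 classes), where limma called 70.0% of the classes and 60.0% as lower. It was not called without UUO sample 1 (-1.38, adjusted p = 0.181) or among cells under 10% mitochondrial UMIs (-2.03, adjusted p = 0.226). With edgeR on cell numbers it was called when scaled to sample totals (-2.28, adjusted p = 0.0314, with 1 class called higher and 5 lower) and not under TMM scaling (-0.21, adjusted p = 0.758, with 2 higher and 1 lower).

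**Figure D2:**
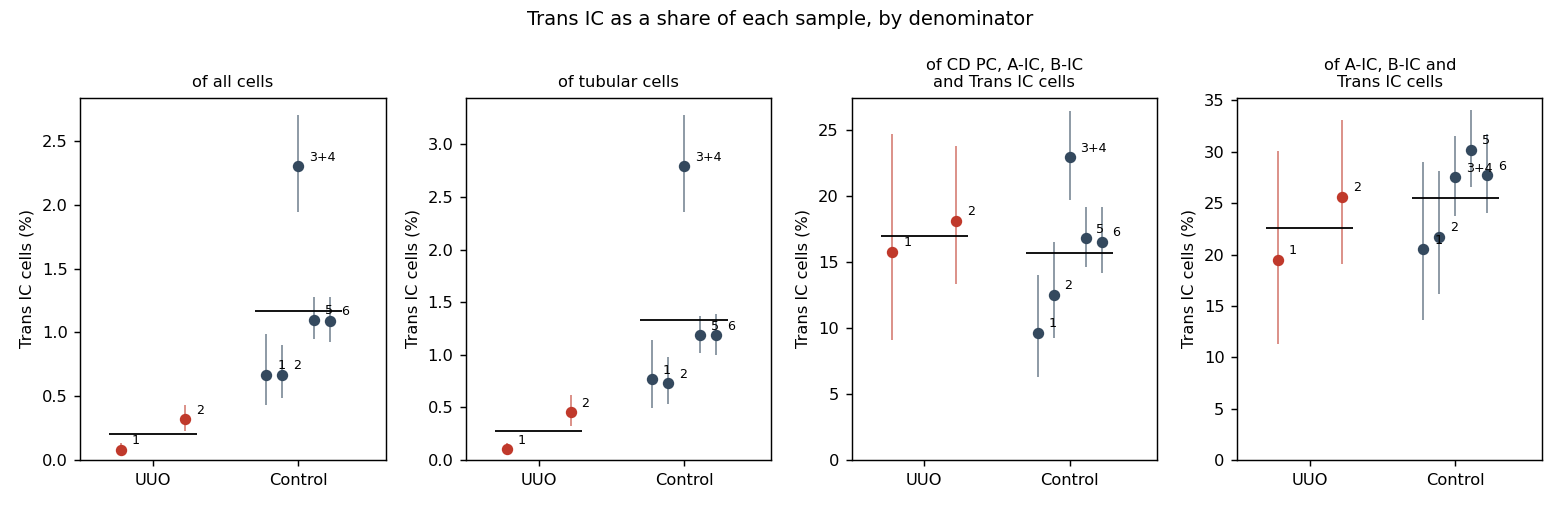
Trans IC cells in percent of 4 denominators, with 1 point per sample (numbered as in the labels), exact 95% intervals as vertical lines and group means as horizontal lines. UUO samples lie below all Control samples in the 2 panels on the left (0.0816% and 0.317% against 0.667% to 2.30% of all cells) and overlap with them in the 2 on the right.

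No such difference was detected when Trans IC was set against the distal tubule and collecting duct alone. Of the distal tubule, connecting tubule and collecting duct cells together, Trans IC made up 6.91% and 6.73% in UUO samples 1 and 2, against 3.02% to 8.40% in Control. Of the collecting duct classes it made up 15.8% and 18.1% in the UUO samples, against 9.64%, 12.5%, 23.0%, 16.8% and 16.6% in Controls 1, 2, 3+4, 5 and 6. Of the intercalated cells it made up 19.5% (11.3 to 30.1, 15 of 77 cells) and 25.6% (19.1 to 33.1, 41 of 160 cells) in UUO samples 1 and 2, against 20.5%, 21.7%, 27.5%, 30.2% and 27.7% in Controls 1, 2, 3+4, 5 and 6. The groups overlapped on all 3 denominators. Differences in log2 odds were 0.45, 0.20 and -0.22, with exact permutation p of 0.381, 0.667 and 0.429 and adjusted p of 0.643, 0.667 and 0.643. Leaving out 1 sample in turn gave 0.26 to 0.56, 0.022 to 0.31 and -0.46 to 0.024, with the lowest collecting duct value without Control 1. With 2 UUO and 5 Control samples the lowest exact permutation p is 0.0476, so a p above the threshold does not show that these shares were alike.

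Of the ratios to 3 single classes, the ratio to the acid-secreting A-IC was the only one that kept the UUO and Control values apart. UUO samples 1 and 2 held 0.341 and 0.466 Trans IC cells per A-IC cell, against 0.706, 0.623, 0.624, 1.21 and 0.690 in Controls 1, 2, 3+4, 5 and 6. UUO was the lower group. The difference in log2 ratio was -0.89 (exact permutation p = 0.0476, the smallest possible, adjusted p = 0.143 over 3 ratios), which does not pass. It was -0.71 without Control 5 and -0.75 among cells with at least 1000 UMIs (exact permutation p = 0.286, adjusted p = 0.286).

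Against the base-secreting B-IC the ratio was 0.833 and 1.32 in the UUO samples, against 0.407 to 0.966 in Control (log2 difference 0.69, exact permutation p = 0.238, adjusted p = 0.357). Against CD PC it was 0.833 and 0.621 in the UUO samples, against 0.182, 0.297, 1.39, 0.380 and 0.412 in Controls 1, 2, 3+4, 5 and 6 (log2 difference 0.81, exact permutation p = 0.381, adjusted p = 0.381). There Control 3+4 alone overlapped with UUO. Without Controls 3 and 4 the log2 difference was 1.24 (exact permutation p = 0.0667, adjusted p = 0.10).

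**Figure D3:**
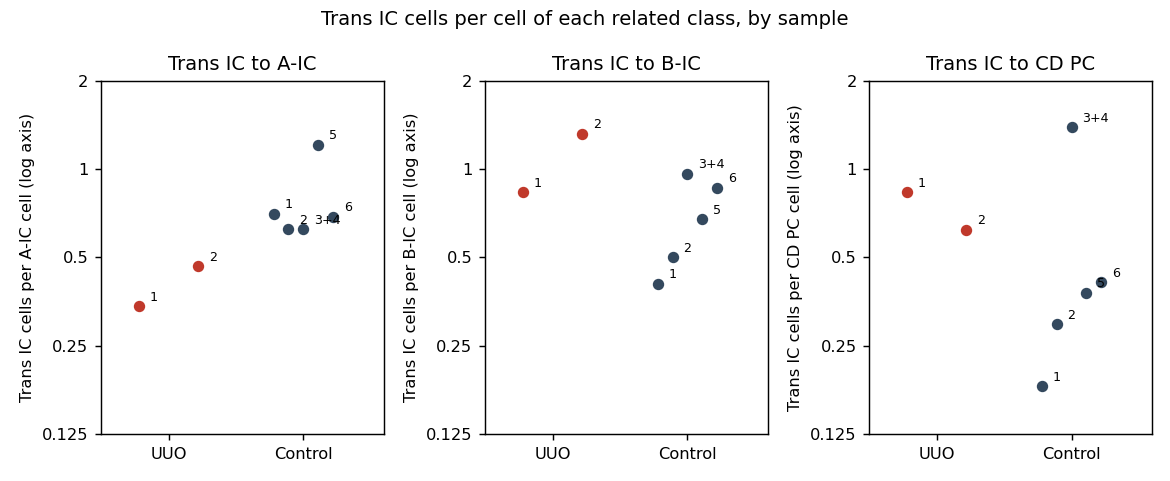
Trans IC cells per A-IC, B-IC or CD PC cell in each sample (log axis, 1 point per sample). Both UUO samples (0.341 and 0.466) lie below all Control samples for A-IC, and the groups overlap for B-IC and CD PC.

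Trans IC cells carried few transcripts. Their median was 1257 UMIs per cell over all samples, against 3328 in A-IC, 5166 in B-IC and 2314 in CD PC. With the cells of all samples pooled this was the lowest of the 10 tubular class medians, although libraries differ in depth and in their share of Trans IC. Within single libraries it was the lowest tubular median in UUO sample 2 and in Controls 3 and 5, and it ranked 3 from the bottom in UUO sample 1 and 5, 3, 2 and 4 from the bottom in Controls 1, 2, 4 and 6. By sample the Trans IC median was 1946 and 1413 UMIs in UUO samples 1 and 2, and 1385, 1311, 780, 1815 and 1673 in Controls 1, 2, 3+4, 5 and 6. In the same samples A-IC medians lay between 2588 and 5449, and B-IC medians between 3542 and 6649.

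Within samples, Trans IC held 0.424 times the UMIs of A-IC (log2 difference -1.24 ± 0.42, SD, n = 7 samples) and 0.299 times those of B-IC (-1.74 ± 0.45), lower in 7 of 7 samples for each. The exact sign-flip permutation p was 0.0156, the smallest that 7 samples can give, and 0.0469 when adjusted over the 12 contrasts of this kind. Genes detected per cell were 0.480 times those of A-IC and 0.363 times those of B-IC, with the same exact p. Against CD PC the UMI ratio was 0.613 (lower in 6 of 7 samples, exact permutation p = 0.0312, adjusted p = 0.075), and UUO sample 1 went the other way at 1.17. The classes were called from the transcripts of these same cells, so depth and class are not independent.

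With UUO sample 1 or 2, or Control 1, 2, 5 or 6, left out in turn, UMIs were lower than in A-IC and B-IC in all 6 remaining samples, at log2 differences from -1.32 to -1.18 and from -1.89 to -1.69. The exact adjusted p then lay between 0.0625 and 0.0938, since 6 samples cannot give less than 0.0312 unadjusted. Without Controls 3 and 4 the UMI contrasts were -1.14 and -1.67 (exact permutation, adjusted p = 0.0938 for both).

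At matched UMIs the number of genes was close to that of the other classes. Measured from a line of log2 genes on log2 UMIs fitted per sample to A-IC, B-IC and CD PC cells, Trans IC detected 1.02 times the genes of A-IC, 1.03 times those of B-IC and 1.04 times those of CD PC (exact adjusted p = 0.597, 0.268 and 0.337). Sample values lay between 0.886 and 1.12. The mitochondrial share was 7.21% to 20.2% by sample in Trans IC, and differed from A-IC by -1.89 percentage points, from B-IC by 0.883 and from CD PC by -3.83 (exact adjusted p = 0.337, 0.641 and 0.281).

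**Figure D4:**
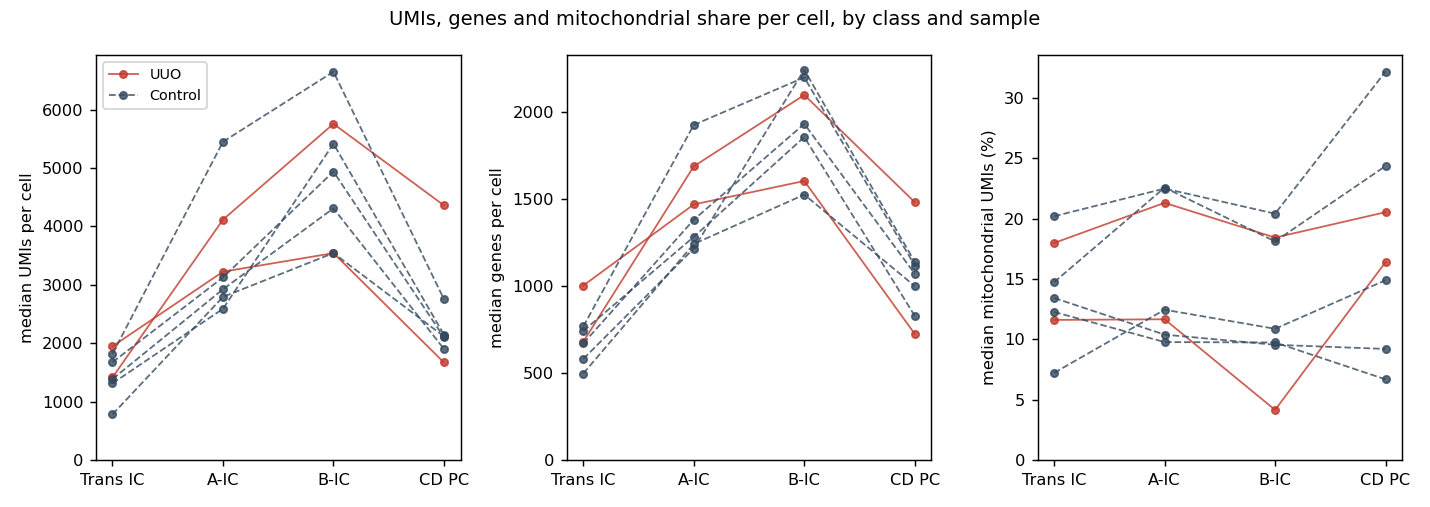
Sample medians of UMIs, genes detected and mitochondrial UMIs per cell in Trans IC, A-IC, B-IC and CD PC, with 1 line per sample. Trans IC is below A-IC and B-IC in UMIs and genes in 7 of 7 samples, and the mitochondrial lines cross.

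None of these measures in Trans IC passed a test between UUO and Control, and with 2 UUO samples the intervals are wide. The sample medians of UMIs per cell averaged 1680 ± 377 for the 2 UUO samples and 1393 ± 400 for the 5 Control samples (SD), with a log2 difference of 0.31 (exact permutation p = 0.429, adjusted p = 0.810 over 6 measures). With limma over the 26 classes that had enough cells it was not called either (95% interval -0.33 to 0.94, adjusted p = 0.438), where 15.4% of classes were called and the median class differed by 0.45. Genes per cell averaged 842 ± 228 in UUO and 652 ± 113 in Control (log2 difference 0.36, limma 95% interval -0.11 to 0.83, adjusted p = 0.245, with 19.2% of classes called). Leaving out 1 sample in turn gave 0.078 to 0.54 for UMIs and 0.080 to 0.64 for genes, with the lowest value without UUO sample 1 and the highest without UUO sample 2.

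The mitochondrial share averaged 14.8% ± 4.51 in UUO and 13.6% ± 4.67 in Control, a difference of 1.23 percentage points (limma 95% interval -7.18 to 9.63, adjusted p = 0.992). For that measure limma called 0 of the 26 classes, and 0 had an unadjusted p under 0.05. Taken relative to A-IC, B-IC and CD PC of the same sample, which share its library, Trans IC held 0.729 and 0.301 times the UMIs in UUO samples 1 and 2, against 0.283 to 0.525 in Control (log2 difference 0.19, exact permutation p = 0.714). That difference had the other sign without UUO sample 1 (-0.45).

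Trans IC cells were not alike in depth. Of the 593, 230 (38.8%) had under 1000 UMIs, 156 had 1000 to below 2000, 100 had 2000 to below 4000 and 107 had 4000 or more. The share under 1000 UMIs was 26.7% and 29.3% in UUO samples 1 and 2, against 25.0%, 41.9%, 69.2%, 29.2% and 26.2% in Controls 1, 2, 3+4, 5 and 6. Control 3+4, with the highest share of Trans IC, was thus also the sample with most shallow Trans IC cells.

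The class was a large part of shallow intercalated cells and a small part of deep ones. Among intercalated cells under 1000 UMIs, 70.1% (64.8 to 75.0) were Trans IC, and this fell to 40.8%, 18.4% and 11.3% (9.37 to 13.5) in the bands of 1000 to below 2000, 2000 to below 4000 and at least 4000 UMIs. B-IC ran the other way, at 3.96% of the shallowest and 56.2% of the deepest band. Of the 13 B-IC cells in the shallowest band, 12 came from Control 3+4 and 1 from Control 6. A-IC made up 25.9%, 42.9%, 49.9% and 32.5% of the 4 bands from shallowest to deepest. The intervals treat pooled cells as independent and leave out the spread between samples. By sample the Trans IC share of the shallowest band ran from 58.1% (Control 2) to 100% (UUO sample 1, 4 cells). In the deepest band it ran from 0.719% (Control 3+4) to 16.7% (UUO sample 1). Control 3+4 gave 148 of the 328 intercalated cells under 1000 UMIs. In UUO kidneys Trans IC made up 88.9% (16 of 18 cells), 43.6%, 11.9% and 13.3% of the 4 bands, against 69.0% (214 of 310 cells), 40.5%, 19.3% and 11.1% in Control kidneys. Trans IC had a higher share in the shallowest than in the deepest band in 7 of 7 samples. The bands split the same cells by the same UMIs, so this largely restates the lower UMIs of the class given above. Whether the class name follows depth was not tested.

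**Figure D5:**
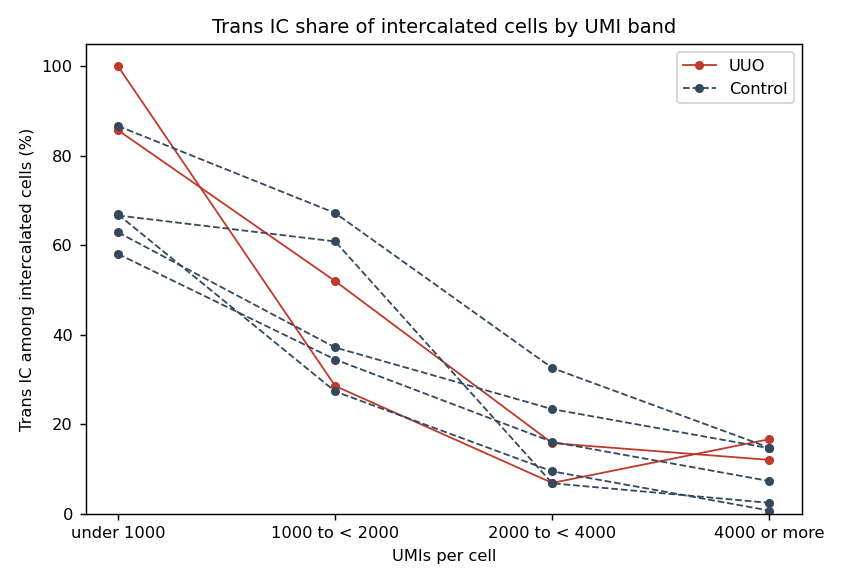
Trans IC in percent of intercalated cells (A-IC, B-IC and Trans IC) in 4 bands of UMIs per cell, with 1 line per sample. The share is higher under 1000 UMIs than at 4000 or more in 7 of 7 samples, at 70.1% and 11.3% over all samples.

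Depth also went with place, mainly among the deepest cells. B-IC made up 85.2%, 86.6%, 80.8% and 55.0% of neighbours in the 4 UMI bands from shallowest to deepest. Over the 593 cells Spearman's rho between UMIs and the share of B-IC neighbours was -0.101, which is a description. The 512 Trans IC cells whose nearest cells were mostly B-IC had a median of 1182 UMIs, and the 74 whose nearest cells were mostly A-IC had 4350. By sample the A-IC side was deeper in 6 of 7 samples, with 6039 against 1265 UMIs in UUO sample 1 and 4378 against 1371 in UUO sample 2. The gap was small in Control 3+4, at 793 (7 cells) against 760, and the exception was Control 1 with 1342 against 1385. The A-IC side held 5 of 15 cells (33.3%) and 7 of 41 cells (17.1%) in UUO samples 1 and 2, against 16.7%, 18.6%, 4.90%, 8.43% and 18.8% in Controls 1, 2, 3+4, 5 and 6. UUO sample 1 was the highest and UUO sample 2 lay within the Control range.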

How the data were processed

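Cells of whole kidney were run on the 10x Genomics Chromium platform with 3′ chemistry, according to the labels. Cell Ranger 6.0.1, Seurat 4.0.1 and the build mm10 are named in the submitters' processing notes, and no source used here gives their settings, cell filters or class rules. The deposited table gives, per cell, UMIs and genes as raw counts and mitochondrial UMIs as a percent, per the file headers, with the authors' class and sample. The deposited UMAP coordinates are a score with no unit, for the 25200 cells outside the proximal tubule class. No column of per-sample values was set aside (0). Doublets were left as the authors had them.

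Shares were fitted as log2((n + 0.5)/(N - n + 0.5)) with limma 3.58.1 in R 4.3.3 over all classes, with Benjamini-Hochberg adjustment and a threshold of 0.05. Other values used two-sided exact permutation tests over samples, with at least 10 cells per class and sample. The deposited counts of cells were also tested with edgeR 4.0.16. Values were given for Trans IC and for A-IC, B-IC and CD PC. Functions were tested on simulated data. The class, comparisons and lists were chosen with earlier results of these data known. Leaving out Controls 3 and 4 together was added after seeing the data, as were the UMI bands.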

Additional observations from a re-analysis of the deposited data

Results flagged for a closer look

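In 5 of 28 sets of Control values for Trans IC, 1 sample stood apart from the other 4, in that its gap to the nearest sample, divided by the whole range, was above Dixon's 95% critical value. That value is set so that chance passes it in about 1 in 20 sets of normally distributed values, and the 28 sets share cells. Control 3+4 stood apart with 2.30% of all cells, 2.79% of tubular cells and 1.39 Trans IC cells per CD PC cell. Control 5 stood apart with 1.21 Trans IC cells per A-IC cell. Control 1 stood apart in genes at matched UMIs against B-IC, at 0.935 times.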

How the results depend on the processing

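Of 408 alternative values, 328 kept direction and call, 47 lost the call, 2 gained one and 31 had the other sign. Most results had no call at first, so keeping it there means only that they stayed uncalled. Of the called results, the share of all cells lost its call in 4 of 19 alternatives and the share of tubular cells in 7 of 19. The UMI and gene contrasts with A-IC and with B-IC each lost it in 9 of 13. The UUO minus Control difference in Trans IC as a share of all cells or of tubular cells kept its sign throughout. It lost its call on the arcsine scale (-0.063 and -0.062), with exact permutation in place of limma (-2.69 and -2.46) and, for tubular cells, in the libraries over 10000 cells (-2.47), under 10% mitochondrial UMIs (-2.03) and with TMM scaling in edgeR (-0.21). Leaving out each sample gave -3.66 to -1.72 of all cells, -3.54 to -1.38 of tubular cells and -0.46 to 0.024 of intercalated cells. The sample number pairs no animals in the labels, and the class deviations of Control and UUO samples with the same number correlated at -0.333 and 0.0554 (28 classes). With the number as a replicate block the differences were -2.05 and -1.82, neither called, with 0.12 for the share of intercalated cells and -4.25 points for the relative mitochondrial share. The block called 5 classes higher and 6 lower of all cells, and 0 of the tubular classes.

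The limit of 10% mitochondrial UMIs removed 366 of 593 Trans IC cells. It gave -0.19 for the distal and collecting duct share, -0.22 for the collecting duct share and -0.26 for the B-IC ratio. In UUO sample 1 it removed 11 of 15 Trans IC cells, which left that sample under the minimum of 10 cells. With 1 UUO and 4 Control samples left, the differences were -0.098 for genes and -0.36 points for the mitochondrial share. For the place towards A-IC and B-IC they were -0.027 and -0.044, on the same samples. Under the 10% limit UMI and gene contrasts were -1.94 and -1.48 with A-IC and -1.84 and -1.41 with B-IC, uncalled with 3 and 4 samples left. Genes at matched UMIs were -0.050, -0.0092 and -0.082 against A-IC, B-IC and CD PC, and the mitochondrial contrast with B-IC was -0.42. Libraries over 10000 cells gave -0.072 for UMIs and -2.67 points for mitochondria. Means over cells gave -0.26 points, -0.74 relative, and -0.0071 for the place towards B-IC. A minimum of 20 cells, which drops UUO sample 1, gave relative values of -0.45 for UMIs, -0.23 for genes and -0.10 points for mitochondria.

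Leaving out each sample gave -0.45 to 0.82 for relative UMIs, -0.23 to 0.87 for relative genes, -1.96 to 4.41 points for mitochondria, -0.10 to 2.88 relative, and -0.013 to 0.068 and -0.026 to 0.092 for the 2 places. For the contrasts it gave -1.32 to -1.18 (UMIs) and -1.14 to -1.01 (genes) with A-IC, -1.89 to -1.69 and -1.59 to -1.38 with B-IC, and -0.21 to 1.59 points for mitochondria with B-IC. Control samples alone gave -1.28, -1.11, -1.86 and -1.59, uncalled because 5 samples cannot go below 0.0625, and -0.17 points. Without Controls 3 and 4 they were -1.14, -1.02, -1.67 and -1.44, and the mitochondrial difference was -0.36. With 8 separate samples the CD PC contrasts were called (-0.79 and -0.62). With fewer samples the lowest possible exact p is higher, and the cause of a changed value was not tested. Without a limit on cells the UUO values rest on 15 and 41 cells.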

Other observations

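With all samples pooled, the median mitochondrial share of Trans IC cells was 7.22% under 1000 UMIs, 15.5% at 1000 to below 2000, 25.1% at 2000 to below 4000 and 20.6% at 4000 or more. Control 3+4 gave 99 of the 230 cells under 1000 UMIs, at a median of 4.90%. In UUO sample 1 the medians of the 4 bands were 16.9%, 9.81%, 5.63% and 13.6%, on 4, 4, 2 and 5 cells. These are too few cells to read a direction from the bands. Across the 593 cells Spearman's rho between UMIs and mitochondrial percentage was 0.486, against -0.0992 in A-IC, 0.296 in B-IC and -0.227 in CD PC. Cells share libraries and the percentage has the UMIs as its denominator, so these values are a description. By sample rho was above 0 in 5 of 7 samples for Trans IC, 4 of 7 for B-IC, 1 of 7 for A-IC and 0 of 7 for CD PC. For Trans IC it was -0.0122 and -0.0343 in Controls 1 and 2, and 0.196 in UUO sample 1. The barcode of 55 Trans IC cells (9.27%) also occurred in another library, on a cell of another class, against 8.48% of all cells.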
